A study of Mus musculus with 6 samples.

Results

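Ribosome biogenesis was followed through 37 genes that act in the nucleolus, from transcription of ribosomal RNA by RNA polymerase I to assembly of the 2 ribosomal subunits. They were chosen with earlier results of these data known and were taken by gene name. Each matched 1 row of the authors' deposited table, and all 37 were among the 14748 rows tested there, out of 37757 rows in all. The cells were epithelial cells taken from mouse kidney (strain C57/Bl6J, donors aged 8 weeks), and attached and suspended cultures alike carried the genotype Bim-/- Bmf-/-. Bim and Bmf are death-promoting BH3-only proteins, so both groups lack, per the labels, a pair of genes that act when epithelial cells lose their anchorage. The first group stayed attached and the second spent 4 h in suspension, with 3 libraries each, and the titles of the suspended libraries carry the word Anoikis, cell death after loss of anchorage. The labels do not say whether the libraries came from separate cultures or animals, nor which exons the deletions remove, and no wild-type cells were analysed here. The row of Bcl2l11, the gene of Bim, stood at 9.53 FPKM attached and 51.4 FPKM suspended and that of Bmf at 2.95 and 4.30 FPKM according to the authors' deposited table, so these rows cannot serve as a check of the genotype without knowing the deleted exons.

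Ribosomal RNA is copied by RNA polymerase I in the nucleolus, then cut, chemically modified and folded onto ribosomal proteins by a large cast of assembly factors. Small nucleolar RNAs (snoRNAs) guide the modifications: box C/D particles methylate the RNA and box H/ACA particles convert uridines to pseudouridine. The process uses much of the energy of a growing cell, and growth signals acting through MYC, mTOR and ERK are known to adjust it.

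The table gives 1 FPKM per gene and condition (fragments per kilobase of transcript scaled to the size of the library), which combines the libraries of each condition. It also gives their log2 fold change, p and q, where q is the p adjusted over all tested rows and a gene counts as called when q is below 0.05. No value per library was analysed, so no spread between replicates stands beside the levels, and depth is unknown. FPKM is a share of each library, so fewer cells with a transcript, less of it per cell, and a change in all other RNA cannot be told apart. No q of the authors' deposited table lies below 0.000185, and every called gene below, apart from the cell type markers, has this q unless another is given.

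Most of these genes were called lower in FPKM in suspended cells. By the calls of the authors' deposited table, 32 of the 37 were called lower and 0 higher, against 26.3% called lower and 24.7% called higher among all tested rows. The 37 genes were chosen with earlier results of these data known, so this contrast is a description only. The authors' Cuffdiff test also left 0 members higher at an unadjusted p below 0.05, and 34 lower. All 37 had the lower FPKM in suspension, including the 5 that were not called, Nop56, Rrp9, Nhp2, Nop14 and Npm1. The median log2 fold change was -1.06, which leaves 48.0% of the attached level, and single genes ranged from -1.85 (Polr1b) to -0.11 (Npm1) as listed in the authors' deposited table. Over all tested rows the median was -0.04. A fall of at least 2-fold was called for 19 of the 37 per the authors' deposited table, against 7.12% of all tested rows. Among tested rows that reached 1 FPKM in each condition the median was -0.11, and relative to that value the median of the 37 genes was -0.95.

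**Figure D1:**
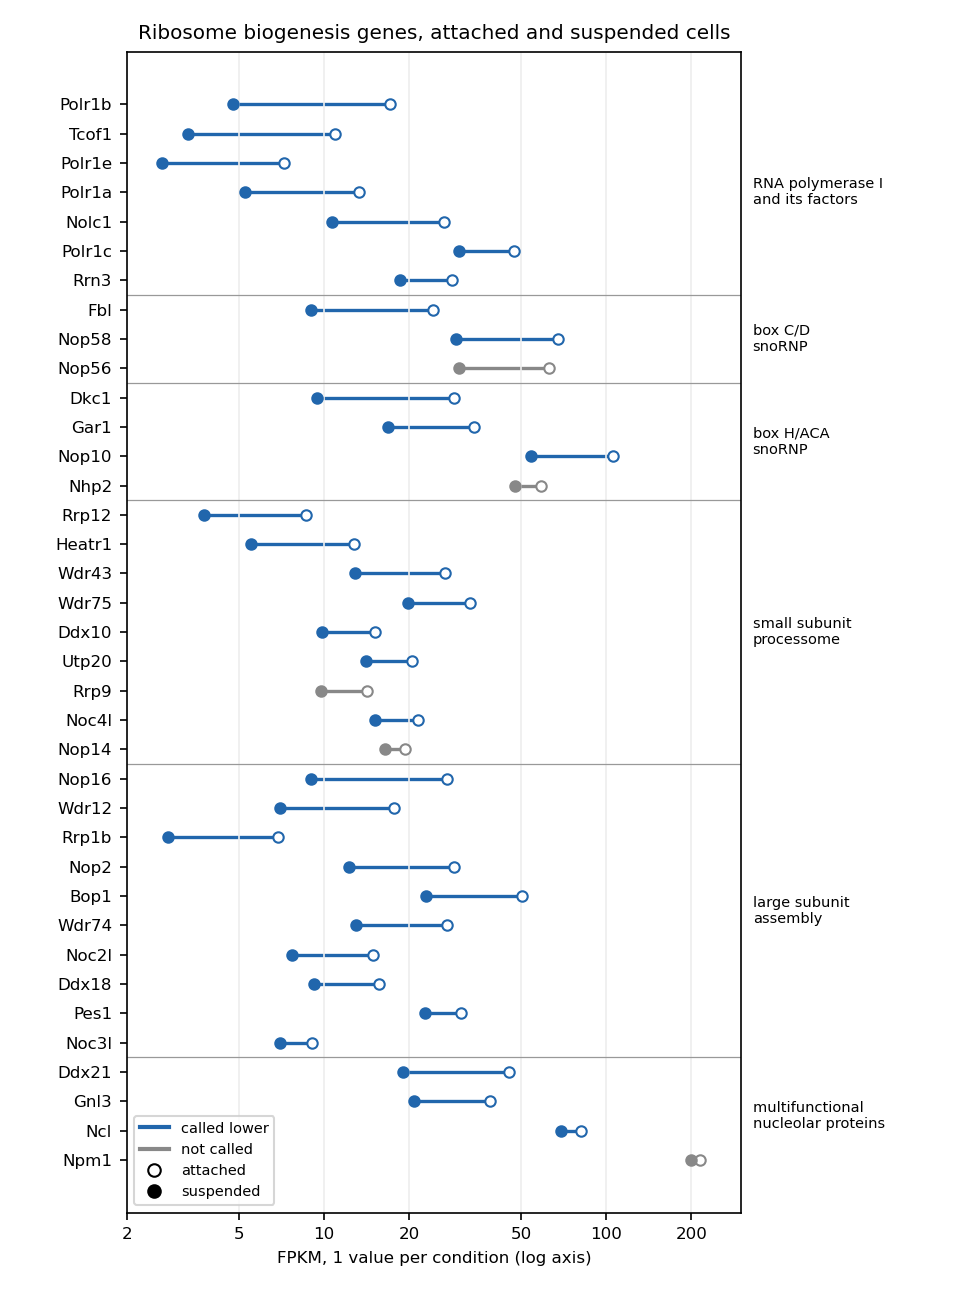
Levels of the 37 genes in FPKM (log scale, horizontal), ordered by role. Each gene has an open circle for attached and a filled circle for suspended cells, both taken from the authors' deposited table, and its colour gives the call (blue lower, grey not called). Every filled circle lies to the left of its open circle, by the widest margin for Polr1b (17.1 to 4.74 FPKM) and the narrowest for Npm1 (215 to 199 FPKM).

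The promoters of 3 genes are shown because all 3 genes were called lower, by unlike amounts, and because their upstream DNA differs. Each runs 5′ to 3′ on the plus strand from 250 to 11 bases before the RefSeq gene start (240 bases, GRCm38.p6) and overlaps no annotated exon. Capitals mark the E-box CACGTG, the letters bound by MYC with its partner MAX, and CCGGAAG or its reverse complement, a core bound by ETS factors. Rrn3 (chr16:13780449-13780688) has E-boxes at -215 and -48 and, outside the printed stretch, ETS cores at -5 and 19, Nop2 (chr6:125131633-125131872) has an E-box at -60 and an ETS core at -38, and Polr1b (chr2:129100746-129100985) has neither.
Rrn3: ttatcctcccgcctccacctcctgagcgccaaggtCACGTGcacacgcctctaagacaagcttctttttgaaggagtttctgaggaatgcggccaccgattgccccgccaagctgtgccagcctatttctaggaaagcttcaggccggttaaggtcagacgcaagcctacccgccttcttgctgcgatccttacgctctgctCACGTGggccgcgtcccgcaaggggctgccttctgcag
Nop2: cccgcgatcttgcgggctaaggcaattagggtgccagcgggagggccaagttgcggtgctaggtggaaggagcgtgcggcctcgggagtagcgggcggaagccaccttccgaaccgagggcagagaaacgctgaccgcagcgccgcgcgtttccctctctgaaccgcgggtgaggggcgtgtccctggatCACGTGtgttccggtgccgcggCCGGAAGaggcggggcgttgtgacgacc
Polr1b: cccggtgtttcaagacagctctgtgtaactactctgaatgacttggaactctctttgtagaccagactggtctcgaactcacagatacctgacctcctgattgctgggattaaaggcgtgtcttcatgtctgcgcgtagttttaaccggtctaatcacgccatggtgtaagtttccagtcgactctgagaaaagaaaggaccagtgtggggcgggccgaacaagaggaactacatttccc

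RefSeq windows reaching from 250 bases before to 50 after the start were found for 32 of the 37 genes, and the windows of Tcof1, Fbl, Rrp12, Bop1 and Npm1 were not used here. All motifs were searched on both strands, and none of them lies inside another, although ends can overlap. CACGTG was in the window of 5 of the 32 genes (15.6%: Rrn3, Wdr43, Utp20, Pes1 and Nop2), of 11.6% of tested genes and of 8.09% of all genes with a window. The variant CACGCG was in 10 of the 32 (31.2%), in 19.9% of tested genes and in 10.5% of all. CCGGAAG was in 12 of the 32 (37.5%), in 19.2% of tested genes and in 9.93% of all. GGGCGG, the GC box bound by SP1, was in 25 of the 32 (78.1%), in 68.6% of tested genes and in 38.2% of all. CCAAT was in 11 of the 32 (34.4%), in 43.2% of tested genes and in 41.1% of all. A match describes letters in the window and was not tested as a binding site. By the authors' deposited table the log2 fold change had a median of -0.62 in carriers of CACGTG and -1.01 in the others. For CCGGAAG the medians were -0.98 in carriers and -1.01 in the others. They were -0.96 and -1.04 for CACGCG, -0.95 and -1.01 for GGGCGG, and -0.77 and -1.06 for CCAAT. Carriers thus had the smaller median fall for each motif searched, and these differences were not tested. Polr1b, with neither motif in its printed stretch, had a log2 fold change of -1.85, against -1.23 for Nop2 and -0.62 for Rrn3, according to the authors' deposited table.

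Among the groups of the 37 genes, that of RNA polymerase I and its factors, with 7 genes, had the lowest median. All 7 were called lower, with a median log2 fold change of -1.34 as listed in the authors' deposited table. Polr1b, the second largest catalytic subunit (chromosome 2, positions 129100995 to 129126594; gene positions are those of GENCODE M21 on GRCm38), went from 17.1 FPKM attached to 4.74 FPKM suspended, the lowest share of the attached level among the 37 genes (27.7%; log2 fold change -1.85) per the authors' deposited table. Polr1a, the largest subunit (chromosome 6, positions 71909053 to 71984935), went from 13.3 to 5.26 FPKM according to the authors' deposited table. Polr1e, a subunit particular to this polymerase, went from 7.22 to 2.66 FPKM (log2 fold change -1.44) as listed in the authors' deposited table, the lowest suspended level of the set. Polr1c, which RNA polymerase III also uses, stayed nearer to its attached level, from 46.9 to 30.1 FPKM (log2 fold change -0.64, q = 0.000355) per the authors' deposited table. Tcof1, the nucleolar protein treacle that ties the polymerase to ribosomal DNA, went from 10.9 to 3.29 FPKM (log2 fold change -1.73) according to the authors' deposited table. Nolc1, a chaperone of snoRNA particles that also binds the polymerase, went from 26.5 to 10.7 FPKM as listed in the authors' deposited table. Rrn3, the initiation factor that makes the polymerase competent to start and a known target of growth signals, changed least of the 7, from 28.4 to 18.5 FPKM (log2 fold change -0.62) per the authors' deposited table. Of the 7 genes 5 fell by at least 2-fold, all but Polr1c and Rrn3.

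The rest of the polymerase I machinery did not move in 1 direction. Of 11 further genes 3 were called lower, 3 higher and 5 not, with a median log2 fold change of -0.04 according to the authors' deposited table. These shares, 27.3% each way, were near the 26.3% lower and 24.7% higher among all tested rows. Among subunits, Cd3eap, partner of the Polr1e protein, went from 14.002 to 4.998 FPKM (log2 fold change -1.49) as listed in the authors' deposited table, a change close in size to that of Polr1e. Polr1d, which pairs with the Polr1c protein, went from 68.8 to 45.3 FPKM (log2 fold change -0.60) per the authors' deposited table, close to that of Polr1c. The other 2 listed subunits were not called: Znrd1 stood at 22.4 and 19.2 FPKM (q = 0.270) and Twistnb at 19.2 and 18.1 FPKM (q = 0.597) according to the authors' deposited table. Across these 8 subunits, which leave out those shared with RNA polymerase II, 6 were called lower and 0 higher, all 8 had the lower FPKM in suspension (after recentring Twistnb turned, to a log2 fold change of 0.02) and the median log2 fold change was -0.99 as listed in the authors' deposited table. Of the 5 shared subunits, Polr2h (q = 0.000982) and Polr2l were called lower, whereas Polr2e, Polr2f and Polr2k, named after their values were seen, were not and stood at 64.5 and 57.7, 71.3 and 71.7, and 19.2 and 19.6 FPKM per the authors' deposited table.

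Among the 5 factors of the ribosomal DNA promoter other than Rrn3, 3 were called higher and 0 lower by Cuffdiff, and 0 were lower at an unadjusted p below 0.05. Ubtf, which holds ribosomal DNA in an active state (chromosome 11, positions 102304560 to 102319742), rose from 30.3 to 51.9 FPKM (1.71-fold) per the authors' deposited table. Taf1a and Taf1b, subunits of the promoter selectivity factor SL1, rose from 5.32 to 7.88 FPKM (q = 0.00268) and from 7.40 to 10.8 FPKM (q = 0.00128) according to the authors' deposited table. Their partners were not called, with Taf1c at 3.30 and 3.85 FPKM (q = 0.339) and Taf1d at 10.5 and 10.1 FPKM (q = 0.924) as listed in the authors' deposited table. Ttf1, the termination factor, stood at 5.82 and 6.04 FPKM (q = 0.821) per the authors' deposited table. Ptrf, named for transcript release but best known as a coat protein of caveolae, fell from 138 to 82.7 FPKM according to the authors' deposited table. The difference between subunits and promoter factors was not tested as such.

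**Figure D2:**
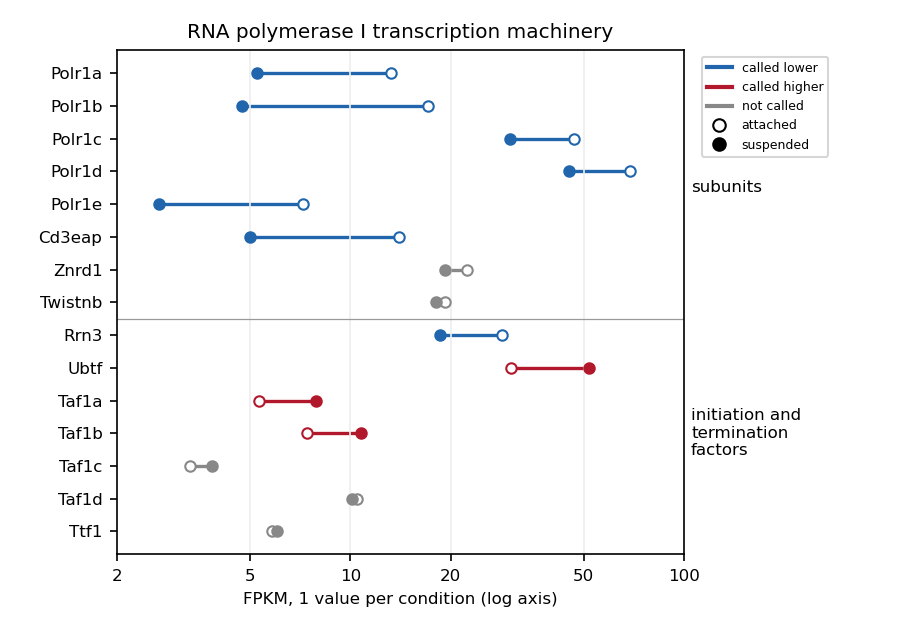
Levels in FPKM (log scale) of 8 RNA polymerase I subunits and 7 initiation and termination factors, both values from the authors' deposited table. Open circles stand for attached and filled ones for suspended cells, coloured blue when called lower, red when called higher and grey otherwise. The 8 subunits, without those shared with RNA polymerase II, lie lower in suspension (Twistnb not after recentring), while Ubtf (30.3 to 51.9 FPKM), Taf1a and Taf1b lie higher.

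The enzymes that copy other RNA classes gave a point of comparison. Of 12 RNA polymerase II subunits 3 were called lower and 1 higher, with a median log2 fold change of -0.17 as listed in the authors' deposited table. Polr2a, the largest subunit, rose from 45.5 to 93.5 FPKM, and Polr2l, a small subunit common to all 3 polymerases, fell from 9.62 to 3.89 FPKM per the authors' deposited table. Of 11 RNA polymerase III subunits 4 were called lower (36.4%) and 0 higher, with a median of -0.23. The authors' unadjusted Cuffdiff p was below 0.05 for 1 higher subunit. Polr3e fell from 11.6 to 7.30 FPKM according to the authors' deposited table. Among all tested rows 26.3% were called lower and 24.7% higher. The shares were 30.9% and 22.5% among tested rows of at least 1 FPKM in both conditions. Neither a test against these shares nor a test of the difference between the 3 enzymes was run.

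The 3 genes grouped here for the box C/D snoRNA particle stood at less than 0.5 of their attached level, and 2 of them were called lower. Nhp2l1, whose protein first binds the RNA of these particles, was listed apart and stayed above that share. It went from 81.0 FPKM attached to 53.8 FPKM suspended (q = 0.000355). Fbl, the methyltransferase fibrillarin (chromosome 7, positions 28169710 to 28179269), went from 24.3 to 8.98 FPKM (log2 fold change -1.44) as listed in the authors' deposited table. Nop58 (chromosome 1, positions 59684971 to 59719044) went from 67.2 to 29.3 FPKM (log2 fold change -1.20, test score -6.15) per the authors' deposited table. Nop56, its paired scaffold (chromosome 2, positions 130274430 to 130279313), stood at 62.7 and 30.1 FPKM (log2 fold change -1.06) according to the authors' deposited table, yet its test score was only -0.14 and it was not called (q = 0.389). Wdr43, with the same log2 fold change of -1.06, had a test score of -5.23 and was called as listed in the authors' deposited table. The level of Nop56 thus differed about as much as that of its partner without a call, and the spread behind its score was not analysed here. Its row carries the same deposited position as that of Idh3b, a mitochondrial dehydrogenase gene that overlaps the end of Nop56 on the other strand and fell from 90.9 to 66.7 FPKM (q = 0.00321) per the authors' deposited table. The part of that neighbour in the score was not tested.

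Nop56 and Nop58 also carry snoRNAs in their introns. Snord110 from Nop56 (chr2:130275506-130275573) and Snord11 from Nop58 (chr1:59704790-59704873) are printed 5′ to 3′ on the plus strand (GENCODE M21, GRCm38). Capitals mark the C box TGATGA and the D box CTGA. These boxes define the box C/D class, whose particles include the proteins of Fbl, Nop56 and Nop58. Snord57 from Nop56 and Snord70 from Nop58 were also searched, hold no exact TGATGA near their start, and are not printed.
Snord110: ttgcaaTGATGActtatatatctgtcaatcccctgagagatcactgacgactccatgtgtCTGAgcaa
Snord11: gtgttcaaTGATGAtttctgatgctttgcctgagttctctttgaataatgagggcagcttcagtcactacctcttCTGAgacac

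Such hosting was shared by 6 of the 37 genes (16.2%), namely Nop56, Nop58, Dkc1, Wdr43, Ncl and Gnl3, against 7.88% of 11803 tested protein-coding genes with an annotated small RNA inside them on the same strand. Of the 20 small RNAs inside these 6 genes 15 have a row of their own, 11 of them at 0 FPKM in both conditions according to the authors' deposited table. Of the 3 that were tested 0 were called by Cuffdiff, and 0 had an unadjusted p below 0.05. For the 6 hosts the median log2 fold change was -1.06 and for the other 31 genes -1.01, with 27 of the 31 called lower as listed in the authors' deposited table. The part of these small RNAs in the values of their hosts was not tested.

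The box H/ACA particle was uneven. Dkc1, the pseudouridine synthase dyskerin (chromosome X, positions 75095854 to 75109777), fell from 28.9 to 9.46 FPKM (log2 fold change -1.61) per the authors' deposited table. Gar1 fell from 33.9 to 16.8 FPKM and Nop10, the smallest subunit, from 105.3 to 54.2 FPKM according to the authors' deposited table. Nhp2, which binds the RNA hairpin, stood at 58.6 and 47.5 FPKM (log2 fold change -0.30) and was not called (q = 0.103) as listed in the authors' deposited table. The highest of these 4 transcripts exceeded the lowest 3.65-fold in attached and 5.73-fold in suspended cells, with Nop10 the highest and Dkc1 the lowest in both conditions.

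Of 9 further genes for building these particles 5 were called lower and 0 higher, and 0 of the 9 were higher at an unadjusted Cuffdiff p below 0.05. Ruvbl2, an ATPase of the R2TP assembly complex, fell from 34.4 to 16.4 FPKM per the authors' deposited table. Znhit6, which helps assemble box C/D particles, fell from 9.10 to 4.34 FPKM, and Nhp2l1, the protein that first binds their RNA, fell from 81.0 to 53.8 FPKM (q = 0.000355) according to the authors' deposited table.

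Genes of the small subunit processome, the particle that forms on the nascent precursor RNA, had a median log2 fold change of -0.63 as listed in the authors' deposited table, against -1.06 over all 37, and 7 of the 9 were called lower. Rrp12, needed for export of the pre-40S particle, fell from 8.67 to 3.74 FPKM and Heatr1, a scaffold that also supports polymerase I transcription, from 12.8 to 5.52 FPKM per the authors' deposited table; both log2 fold changes were -1.21. Wdr43 fell from 26.8 to 12.8 FPKM and Wdr75, like it a WD-repeat protein of the early complex, from 32.9 to 19.9 FPKM (q = 0.000355) according to the authors' deposited table. Changes under 2-fold were called for the helicase Ddx10 (15.2 to 9.82 FPKM), the very large scaffold Utp20 (20.6 to 14.1 FPKM) and Noc4l (21.6 to 15.1 FPKM) as listed in the authors' deposited table. Rrp9, a protein of the U3 particle, stood at 14.2 and 9.79 FPKM (q = 0.0624), and Nop14, partner of the Noc4l protein, at 19.4 and 16.5 FPKM (q = 0.0891), both not called per the authors' deposited table.

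Of 41 further small subunit genes 30 were called lower, 1 higher and 10 not, with a median log2 fold change of -0.59 according to the authors' deposited table. Bysl fell furthest, from 20.9 to 6.495 FPKM (log2 fold change -1.68) as listed in the authors' deposited table. Tsr1, a late pre-40S factor, fell from 25.6 to 10.3 FPKM and Rcl1, an early processing factor, from 14.7 to 6.17 FPKM per the authors' deposited table. The gene called higher was Ngdn, from 21.01 to 27.1 FPKM (q = 0.0127) according to the authors' deposited table.

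All 10 members that build the large subunit were called lower, with a median log2 fold change of -1.10 as listed in the authors' deposited table. Nop16 fell furthest among them, from 27.2 to 8.96 FPKM (log2 fold change -1.61) per the authors' deposited table. The 3 subunits of the PeBoW complex, needed to mature 28S and 5.8S RNA, did not keep a fixed ratio. Bop1 fell from 50.3 to 23.0 FPKM and Wdr12 from 17.7 to 6.96 FPKM, but Pes1 only from 30.5 to 22.8 FPKM (log2 fold change -0.42, q = 0.00361) according to the authors' deposited table. Pes1 and Bop1 thus stood apart in attached cells and nearly level in suspended cells. Nop2, a methyltransferase of 28S RNA, fell from 28.8 to 12.3 FPKM, Wdr74 from 27.4 to 12.97 FPKM and Rrp1b from 6.85 to 2.79 FPKM as listed in the authors' deposited table. Noc2l fell from 14.9 to 7.71 FPKM, the helicase Ddx18 from 15.7 to 9.18 FPKM (q = 0.00157) and Noc3l, partner of the Noc2l protein, from 9.05 to 6.99 FPKM (log2 fold change -0.37, q = 0.00922) per the authors' deposited table.

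Of 41 further large subunit genes 22 were called lower, 2 higher and 17 not, with a median log2 fold change of -0.47 according to the authors' deposited table. Ftsj3, an RNA methyltransferase, fell from 33.3 to 11.3 FPKM (log2 fold change -1.56) as listed in the authors' deposited table. Surf6 fell from 22.03 to 8.58 FPKM and Ppan, a Brix-domain protein, from 20.4 to 7.92 FPKM per the authors' deposited table. The 2 called higher were Las1l, the endonuclease that opens the internal spacer (29.4 to 62.2 FPKM, log2 fold change 1.08), and Eif6, which keeps the new large subunit from joining the small (76.04 to 111 FPKM), according to the authors' deposited table. The RNA exosome, which trims precursor ends, had 9 of 13 measured genes called lower and 0 higher, with 0 higher at an unadjusted Cuffdiff p below 0.05. Exosc8 fell from 26.4 to 10.4 FPKM (q = 0.00489), Exosc2 from 16.7 to 7.65 FPKM (q = 0.00128) and Exosc1 from 23.0 to 12.8 FPKM as listed in the authors' deposited table.

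**Figure D3:**
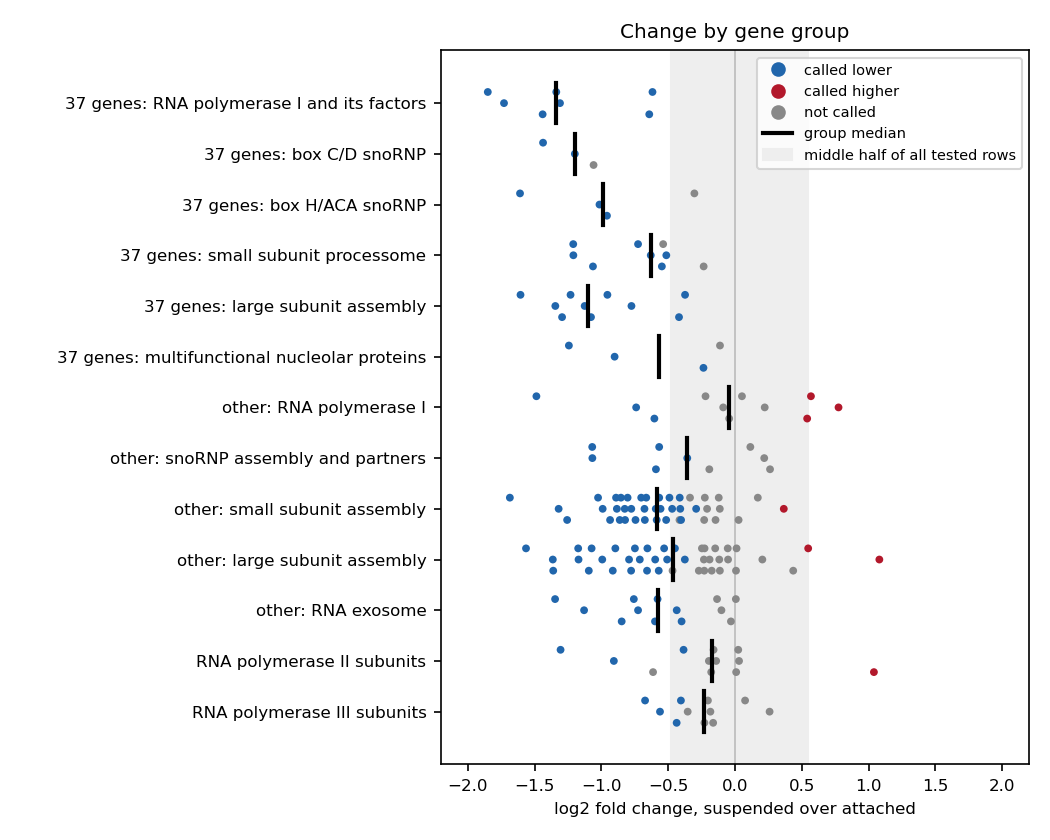
Log2 fold change of each gene from the authors' deposited table (suspended over attached), coloured by the authors' call, with a black bar at the median of each group and the span between the quartiles of all tested rows shaded. The first 6 rows are the 37 genes, with medians from -1.34 to -0.57, and the rows below are the other genes of the pathway and RNA polymerases II and III.

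The 4 abundant nucleolar proteins with several roles split. Ddx21, a helicase that links polymerase I and II transcription, fell from 45.1 to 19.0 FPKM (log2 fold change -1.24) per the authors' deposited table. Gnl3, the GTP-binding protein nucleostemin, fell from 38.9 to 20.8 FPKM (log2 fold change -0.90) according to the authors' deposited table. Ncl, nucleolin (chromosome 1, positions 86344719 to 86359400), fell only from 81.5 to 69.2 FPKM (log2 fold change -0.24), with q = 0.0469 just inside the threshold as listed in the authors' deposited table. Npm1, the histone chaperone nucleophosmin (chromosome 11, positions 33152287 to 33163206), stood at 215 and 199 FPKM (log2 fold change -0.11) and was not called (q = 0.395) per the authors' deposited table. Npm1 and Ncl were thus the members with the highest and the third highest attached level, and the attached level exceeded the suspended 1.08-fold for Npm1 and 1.18-fold for Ncl. Npm1 has processed copies elsewhere in the mouse genome, so its value is uncertain where reads could be shared. In the sum of deposited FPKM the 37 genes held 1312 attached and 801 suspended, and without Npm1 1097 and 602.

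The relation between level and change was weak. Across the 37 genes Spearman's rho between attached FPKM and log2 fold change was 0.31 (Pearson's r 0.34 on log2 FPKM), and without Npm1 and Nop10, the highest pair, rho was 0.26. Over the 11677 tested rows reaching 1 FPKM in each condition rho was -0.28. These are descriptions across genes, which are not independent replicates and share their libraries, and the attached level enters both measures.

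**Figure D4:**
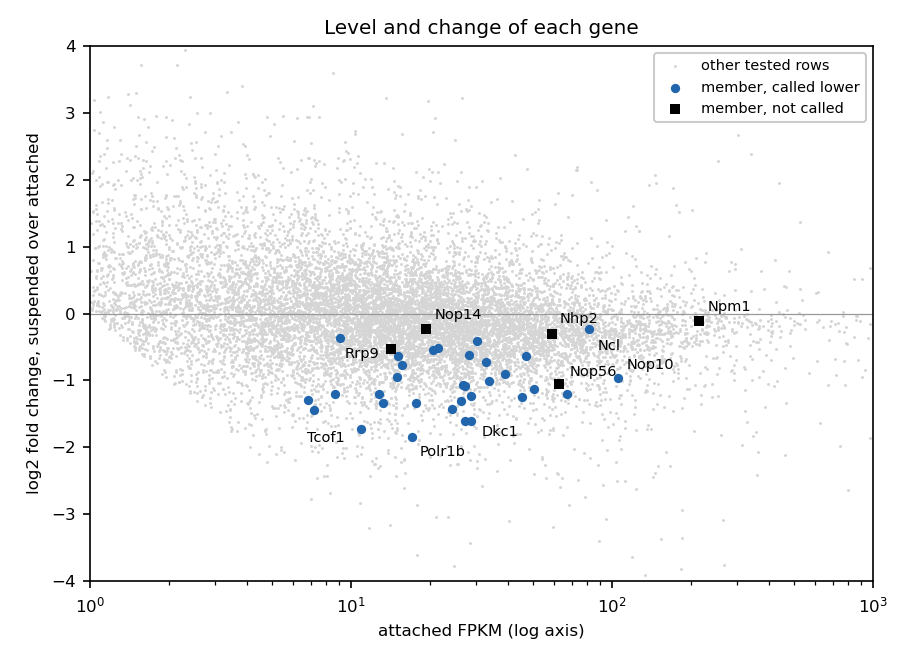
Log2 fold change (suspended over attached) against attached FPKM on a log axis, both from the authors' deposited table, for the 37 genes (blue circles called lower, black squares not called) over 11623 tested rows of at least 1 FPKM in both conditions (grey dots); 54 rows outside the axes are not drawn. All members lie below 0, with Npm1 and Ncl nearest to it at the right, and the slanting lower left edge of the grey dots comes from the 1 FPKM minimum.

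Together 115 other genes of the pathway were tested, of which 69 were called lower and 6 higher (60.0% and 5.22%), with a median log2 fold change of -0.51 according to the authors' deposited table. Another 3, Urb2, Exosc6 and Rsl24d1, were not matched. MYC is known to drive ribosome biogenesis, and the list of its network also holds competitors of MYC. Of the 10 tested members of that network 2 were called lower and 4 higher as listed in the authors' deposited table. The other 4 were not called, and among all tested rows 26.3% were called lower and 24.7% higher. Whether these 10 genes differ from those shares was not tested. Myc fell from 55.4 to 31.6 FPKM and Mycn from 8.30 to 0.322 FPKM per the authors' deposited table. Mxd1 and Mnt, which compete with MYC for MAX, rose from 5.36 to 25.9 FPKM and from 10.2 to 39.7 FPKM according to the authors' deposited table. Their part in the falls of the 37 genes was not tested.

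Other features of the libraries moved with suspension. Kidney epithelial markers were present in both conditions, with 9 of 10 tested: Krt8 stood at 606 and 752 FPKM, Cdh16 at 441 and 346 FPKM and Epcam at 261 and 253 FPKM as listed in the authors' deposited table. Pax8 and Pax2, transcription factors of the kidney lineage, fell from 104 to 37.1 FPKM and from 150 to 30.9 FPKM per the authors' deposited table. Of the 9 tested 5 were called lower and 3 higher. The summed level of the list was 2727 FPKM attached and 2571 FPKM suspended, while Lhx1, a gene of the developing kidney, was near 0 in both. Of 7 leukocyte markers only 3 were tested, and all 3 were called higher (sum of the 7 from 25.7 to 50.8 FPKM) according to the authors' deposited table. Of 5 podocyte markers only 2 were tested, and both were called higher (sum of the 5 from 4.13 to 20.6 FPKM). Nphs1 and Wt1 stood at 0 in attached cells as listed in the authors' deposited table. Of 5 endothelial and 7 fibroblast markers only 1 each was tested, and each was called higher. The sums stayed at or under 2 FPKM, from 0.531 to 0.833 and from 0.225 to 1.97, per the authors' deposited table. Tek was listed at 0 in attached cells, Dcn at 0 in attached cells, and Col3a1 and Lum at 0 in both. Mitochondrial rows, a sign of RNA quality, had 3 of the 10 tested called higher. The FPKM summed over all mitochondrial rows, tested or not, was 31198 attached and 68368 suspended according to the authors' deposited table. The part of these features in the lower levels of the 37 genes was not tested.

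The deposited positions of all 37 genes overlapped their GENCODE M21 annotation (GRCm38). For 12 of them, Nop56, Dkc1, Nhp2, Bop1, Pes1, Wdr12, Rrp1b, Rrp9, Noc2l, Polr1e, Gnl3 and Heatr1, the gene overlaps another protein-coding gene, and their values are uncertain because strand-specific counting is not stated. Apart from small RNAs, 13 tested rows share a deposited position with 10 of the 37 genes, of which 2 were called lower, 2 higher and 9 not. The lower ones were Idh3b and Samd11, beside Noc2l, from 2.42 to 1.08 FPKM (q = 0.0195). The higher ones were Parp3, beside Rrp9, from 17.2 to 30.5 FPKM, and Fbxo10, beside Polr1e, from 1.03 to 1.79 FPKM (q = 0.00588), while Mpp1, beside Dkc1, stood at 76.5 and 76.4 FPKM (q = 0.998) as listed in the authors' deposited table, all named after their values were seen. The 25 of the 37 genes that overlap no other protein-coding gene had 23 called lower and 0 higher, with a median log2 fold change of -1.01 per the authors' deposited table.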

How the data were processed

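Messenger RNA libraries, 3 from attached and 3 from suspended cells, were sequenced on an Illumina instrument, per the labels' protocols. TopHat, Bowtie, Cufflinks 1.0.3 and Cuffdiff with build mm10 are named in the submitters' processing notes. How they were set, and which annotation and strand rule they used, is not given in the sources used here. FPKM were deposited as 1 pooled value for each condition, per the file headers. The p-value, q-value, test score and log2 fold change come from the authors' Cuffdiff comparison, per the file headers, and no further test was run. Column names end in A and S, read here as attached and suspended.

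The 37 genes and the lists were chosen with earlier results of these data known. Genes were matched by symbol or listed older name, and 3 were not matched. Named genes are all 37, the listed polymerase I genes and, per other list, up to 3 called each way by log2 fold change reaching 5 FPKM in at least 1 condition (up to 2 for polymerases II and III and the MYC network). Log2 recomputed from FPKM differed from the deposited value by at most 4.02e-05. Positions, small RNAs and overlaps came from GENCODE M21, promoter windows from RefSeq (GRCm38.p6). The adjustment, motif search and overlap search were tested on simulated data. Alternatives covered the threshold, a 2-fold minimum, the adjustment, a filter at 5 FPKM, recentring, a pseudocount of 1, small RNAs and overlapping genes. Figures were drawn with matplotlib 3.10.9 and tables handled with pandas 2.3.3 in Python 3.11.15, with SciPy 1.17.1 and NumPy 2.4.6. Some marker genes are not reported here.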

Additional observations from a re-analysis of the deposited data

How the results depend on the processing

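The count of 32 members called lower stayed between 23 and 32 over 7 of the 8 alternatives and was 19 when a 2-fold change was required. No alternative could give a member called higher, because all 37 genes had the lower FPKM in suspension and calls kept their deposited direction. The count called lower was 31 at q below 0.01 and 27 of 32 with at least 5 FPKM in both conditions. It was 27 of 31 without genes holding a small RNA and 23 of 25 without genes overlapping another gene. Recentring, the pseudocount and the recomputed adjustment left it at 32 but checked little. Recentring and the pseudocount kept the deposited q, and the recentring shift of -0.11 was smaller than any called change. The recomputed adjustment started from the deposited p. The members' median log2 fold change was -1.06 and ranged from -1.01 to -0.95 over the 5 alternatives run on it. For the other pathway genes, the 2-fold requirement left 16 of 69 called lower and 1 of 6 called higher. Of 63 genes followed singly, 22 lost their call with that requirement and Ncl and Ngdn lost it at q below 0.01. Recentring turned 2 uncalled values, Twistnb from -0.0882 to 0.0202 and Taf1d from -0.0436 to 0.0648, and no called gene changed direction. Alternatives that need values per library (DESeq2, leaving out a replicate, a replicate block) were not run. No paired analysis was possible because the table holds 1 value per condition. Depth behind each gene is unknown.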
